A study of Mus musculus with 12 samples.

Results

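The genes described here are 38 genes of antioxidant defence, glutathione metabolism and iron storage, chosen by symbol from a list and measured in cultured mouse pancreatic stellate cells (PSCs), the fibroblast precursors of the pancreas. The table of counts holds 39179 genes, and all 38 were found in it. PSCs were grown for 72 h alone (mono-PSCs), with pancreatic cancer cells (PCCs; 2W-PSCs), or with PCCs and macrophages (MØs; 3W-PSCs), and there were 4 libraries per culture. The PSCs were 1 immortalised clone carrying mCherry, labelled as strain C57BL/6, were kept in the same low-serum medium in every culture, and were sorted before lysis as cells positive for mCherry and negative for EGFP and TagBFP. The PCCs were an EGFP-labelled mouse line, and the MØs were a TagBFP-labelled mouse cell line. The total number of cells per flask was held equal, so the effect of the added cells and that of a smaller share of PSCs cannot be told apart. No source says whether the 4 libraries of a culture came from separate passages or days, so p-values measure the spread between libraries of 1 clone, which may be technical.

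Cells limit damage by reactive oxygen in steps that these genes encode. Superoxide dismutases turn superoxide into hydrogen peroxide, which catalase removes. Glutathione peroxidases and peroxiredoxins also remove peroxide, at the cost of reduced glutathione or thioredoxin. Glutathione is made from imported cystine and is returned to its reduced form by glutathione reductase, while glutathione transferases attach it to reactive compounds. Ferritin stores iron that would otherwise react with peroxide, and the transcription factor NRF2, held back by KEAP1, switches on many of these genes.

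In 3W-PSCs the genes moved in both directions. Mitochondrial and extracellular superoxide dismutase (Sod2, Sod3), glutathione reductase (Gsr) and the cystine transporter (Slc7a11) were higher than in both other cultures. Cytosolic superoxide dismutase (Sod1), Gpx1, Gpx7, Prdx2, Prdx4 and the mu-class transferases Gstm1 and Gstm2 were lower than in both. These 11 genes were called in the same direction in both comparisons, which share the 3W libraries. A gene is called here when its adjusted p (edgeR quasi-likelihood test, Benjamini-Hochberg over all genes tested) is under 0.05.

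Of the 38 genes, 37 had enough counts to be tested, 17 were called in at least 1 comparison and 20 were tested and called in none. Gpx3 was not tested, since it held no count in any mono library and at most 0.955 CPM (counts scaled to the size of the library) in any other. Comparing 3W-PSCs with mono-PSCs, 7 genes were higher and 9 were lower. Over all 11551 genes tested in that comparison, 26.4% were called, 13.4% higher and 13.0% lower. Comparing 3W-PSCs with 2W-PSCs, 4 were higher and 8 were lower, where 10.7% of all genes were called, 5.73% higher and 4.95% lower. Comparing 2W-PSCs with mono-PSCs, only Gstm1 was called, as lower, where 0.991% of all genes were called, 0.839% higher and 0.152% lower. The median log2 fold change of the 37 genes was 0.0032, 0.10 and 0.066 in 2W against mono, 3W against mono and 3W against 2W, against 0.020, 0.012 and 0.0025 over all genes tested. Counted without a test, the 4 libraries of both cultures did not overlap for 12 of the 37 genes in 3W against mono, 15 in 3W against 2W and 4 in 2W against mono. Over all genes tested, that held for 25.9%, 21.3% and 5.73%.

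**Figure D1:**
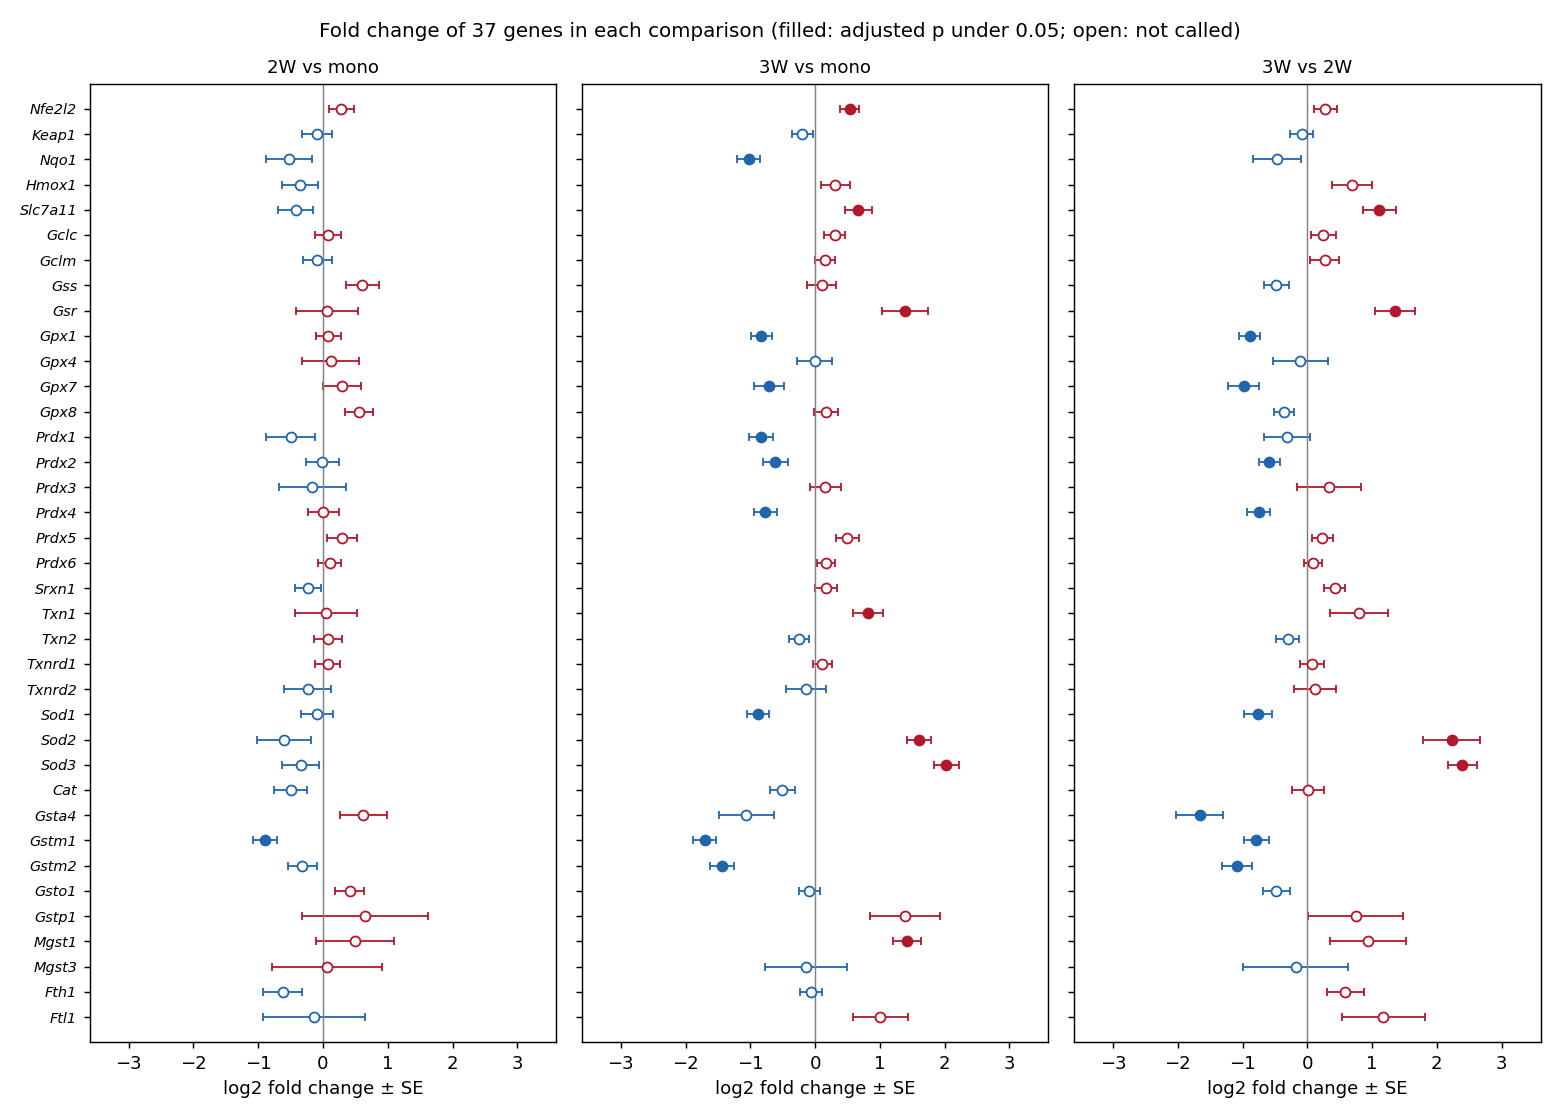
Log2 fold change (x axis, ± SE) of the 37 tested genes (y axis) in the 3 comparisons, with filled points for genes called at adjusted p under 0.05 and open points for the others. One point is filled in 2W against mono, 16 in 3W against mono and 12 in 3W against 2W, on both sides of 0.

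The libraries held 4561817 to 8093368 counts, and the 38 genes took 0.534% to 1.02% of them. Reads come from the 3′ end of transcripts, so levels in CPM were compared between genes without a length correction. The sources used here give no molecular identifiers, so the counts are of reads and not of independent molecules. Fibroblast markers summed to 9104 to 12957 CPM in the mono libraries, 12848 to 19880 CPM in the 2W libraries and 7441 to 8935 CPM in the 3W libraries, so they were lowest in 3W-PSCs (exact permutation test, two-sided p = 0.0286 against either culture, the smallest it allows). Of them, Lum stayed at or under 1.37 CPM and Des at or under 3.32 CPM. Markers of the other cells in the flask moved with the cultures too. Epithelial markers summed to 1.21 to 3.34 CPM in the mono libraries, 75.8 to 149 CPM in the 2W libraries and 54.9 to 92.9 CPM in the 3W libraries (exact permutation test, p = 0.0286 for either co-culture against mono and 0.143 for 3W against 2W). Of the 12 epithelial markers, 8 held a count in 2W-PSCs and 11 in 3W-PSCs. Of the 3 defining genes, Epcam and Esrp1 held no count in 2W-PSCs, while Cdh1 held counts there at a mean of at least 1 CPM. All 3 held a count in 3W-PSCs. Macrophage markers summed to 2.46 to 8.42 CPM in the mono libraries, 4.17 to 11.8 CPM in the 2W libraries and 13.0 to 54.2 CPM in the 3W libraries, with the highest value in 3W replicate 4 (exact permutation test, p = 0.0286 for 3W against either culture). Of the 13 macrophage markers, 12 held a count in 3W-PSCs and 7 in either other culture. Of the 4 defining macrophage genes, Csf1r held a count in every culture and Spi1 only in 3W-PSCs. Ptprc was at 0 in all mono and 2W libraries and in 3W replicates 1 and 2, and reached 2.60 CPM in 3W replicate 4. Adgre1 was at 0 throughout. The part of these shifts in the differences below was not tested. Since these are bulk libraries of sorted cells, fewer cells carrying a transcript and less of it per cell cannot be told apart.

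Libraries of 1 culture differed in many of these genes. Of the 37 genes, 18 were lowest and 10 highest in mono replicate 1 among the mono libraries, 17 were lowest and 11 highest in 2W replicate 2 among the 2W libraries, and 6 were lowest and 21 highest in 2W replicate 3. In 2W replicate 2, Prdx1 was at 290 CPM where the other 3 lay at 926 to 1345 CPM, Sod2 at 9.32 CPM where they lay at 46.9 to 70.1 CPM, and Mgst1 at 2.21 CPM where they lay at 22.8 to 61.8 CPM. Calls over all genes moved with those of the 37 when 1 library was left out. In 3W against 2W, 12 of the 37 and 1230 of all genes were called. Without 2W replicate 2 these were 17 and 2107, with Nfe2l2, Nqo1, Hmox1, Prdx1 and Gsto1 added. They were 3 and 550 without 3W replicate 1, 4 and 497 without 3W replicate 2, 6 and 666 without 2W replicate 4, and 7 and 667 without 3W replicate 4. In 3W against mono, 16 of the 37 and 3054 of all genes were called. Without mono replicate 1 these were 19 and 4266, with Cat, Gstp1 and Ftl1 added, and without 3W replicate 4 they were 14 and 2517. They were 12 and 2411 without 3W replicate 1, and 13 and 2228 without 3W replicate 2.

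**Figure D2:**
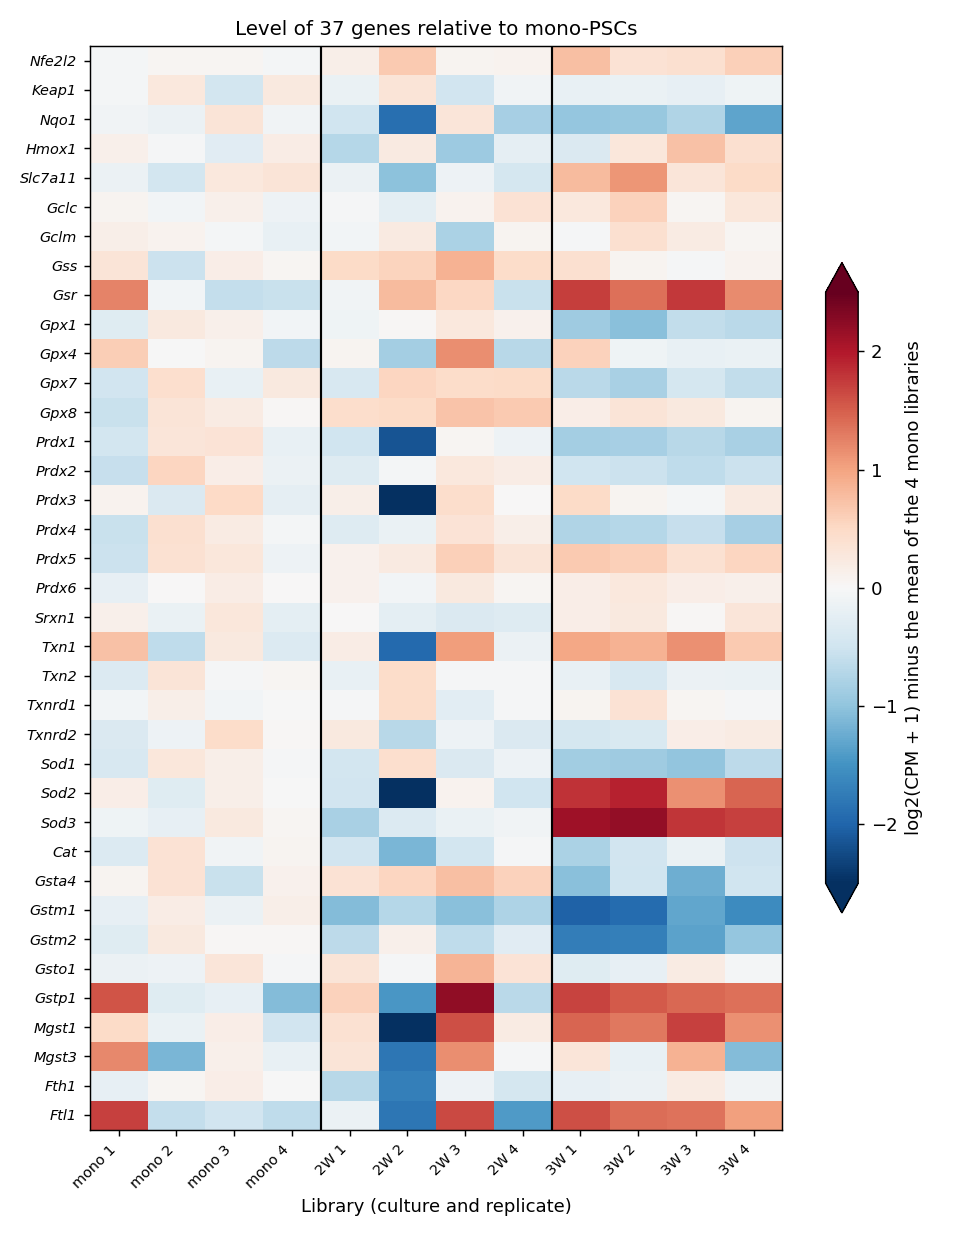
Level of each tested gene (rows) in each library (columns) as log2(CPM + 1) minus the mean of the 4 mono libraries, with red for higher and blue for lower and the colour limited at 2.5. The 2W replicate 2 column is a darker blue than the other 2W columns for Nqo1, Prdx1, Prdx3, Txn1, Sod2 and Mgst1.

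NRF2 binds with small MAF proteins to the antioxidant response element, whose core is written TGACNNNGC. Both strands of the RefSeq promoter windows (GRCm38.p6, 250 bases before to 50 after each start) were searched for this core. Windows were at hand for 32 of the 38 genes, the exceptions being Hmox1, Gclc, Gsr, Prdx6, Sod3 and Gsta4. The core was present for 7 of the 32 genes (21.9%), against 14.0% of all genes and 12.4% of all promoter windows. For Srxn1 it lay after the start. The other 6 are printed because they share the core yet differ in what their transcripts did. Each is given 5′ to 3′ on the strand of the gene, with the core in capitals, read as GCNNNGTCA where it lies on the opposite strand.
Nfe2l2 (chr2:75704875-75704913, minus strand): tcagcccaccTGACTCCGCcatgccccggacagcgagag
Gclm (chr3:122245403-122245451, plus strand): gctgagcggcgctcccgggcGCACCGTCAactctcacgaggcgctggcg
Prdx1 (chr4:116685446-116685494, plus strand): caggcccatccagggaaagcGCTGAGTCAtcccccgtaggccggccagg
Txnrd1 (chr10:82859094-82859142, plus strand): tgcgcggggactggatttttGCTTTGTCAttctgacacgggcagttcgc
Sod1 (chr16:90220686-90220734, plus strand): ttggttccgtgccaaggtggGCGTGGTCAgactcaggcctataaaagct
Mgst1 (chr6:138140451-138140499, plus strand): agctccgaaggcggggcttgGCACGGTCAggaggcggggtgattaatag
The core began 240 bases before the start for Nfe2l2, 134 for Gclm, 133 for Prdx1, 92 for 1 of 3 starts of Txnrd1, and 56 for Sod1 and for 1 of 2 starts of Mgst1. The RefSeq start used for Nfe2l2 was not found in the GENCODE M21 transcripts of the gene, so its distance holds for that start only. In 3W-PSCs against mono-PSCs, Nfe2l2 and Mgst1 were higher, Prdx1 and Sod1 were lower, and Gclm and Txnrd1 were not called. A match is a description of these letters and not of NRF2 binding.

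Nfe2l2, which encodes NRF2, was higher in 3W- than in mono-PSCs. Its level was 143, 153, 153 and 144 CPM in the mono libraries, 164, 233, 156 and 158 CPM in the 2W libraries and 250, 192, 197 and 224 CPM in the 3W libraries. All 3W and all 2W libraries lay above all mono libraries, and those of 2W and 3W overlapped. The log2 fold change was 0.53 ± 0.14 (SE) in 3W against mono (adjusted p = 0.0106), and the call was lost without 3W replicate 1 (adjusted p = 0.0593). Keap1, its inhibitor, was at 141 ± 31 CPM (SD, n = 4) in mono-PSCs, 131 ± 30.6 CPM in the 2W libraries and 124 ± 3.31 CPM in the 3W libraries and was called in no comparison. Nfe2l2 lies at chr2:75675513-75704641 on the minus strand of GRCm38.

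Nqo1, the quinone reductase often read as an NRF2 target, was lower in 3W-PSCs. It was at 60.2, 58.0, 80.1 and 59.8 CPM in the mono libraries, 44.8, 16.7, 79.0 and 35.6 CPM in the 2W libraries and 32, 32.8, 37.4 and 24.9 CPM in the 3W libraries. Every 3W library lay under every mono library, a log2 fold change of −1.03 ± 0.18 (adjusted p = 0.00036), while the 2W libraries spread over both ranges. Hmox1, which breaks down haem and frees its iron, lay between 13.4 and 43.7 CPM over the 12 libraries and was called in no comparison of all libraries. Its log2 fold change in 3W against 2W was 0.69 ± 0.30, and 0.94 (adjusted p = 0.0189) without 2W replicate 2. Nqo1 lies at chr8:107388225-107403206 on the minus strand.

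Of the 5 genes of cystine uptake, glutathione synthesis and recycling, 2 were called higher in 3W-PSCs against mono and the same 2 against 2W. Over all genes tested, 13.4% and 5.73% were higher. Slc7a11, the cystine-importing subunit of system xc-, was at 31.1, 24.7, 41.5 and 43.2 CPM in the mono libraries, 31, 16.4, 31.2 and 25 CPM in the 2W libraries and 59.6, 74.8, 42.3 and 48.1 CPM in the 3W libraries. Every 3W library lay above every 2W library, and 1 lay within the mono range. Gsr, which reduces oxidised glutathione, was at 24.8, 9.40, 6.21 and 6.41 CPM in the mono libraries, 9.29, 17.9, 14.6 and 6.42 CPM in the 2W libraries and 35.1, 27.4, 36 and 23.9 CPM in the 3W libraries. The 3W libraries lay above all 2W libraries and above all mono libraries but replicate 1.
Slc7a11 was 1.59-fold higher in 3W- than in mono-PSCs (log2 fold change 0.67 ± 0.21, adjusted p = 0.0276) and 2.16-fold higher than in 2W-PSCs (1.11 ± 0.25, adjusted p = 0.0171). Gsr was 2.62-fold higher than in mono-PSCs (1.39 ± 0.35, adjusted p = 0.00693) and 2.56-fold higher than in 2W-PSCs (1.36 ± 0.31, adjusted p = 0.0187). Without mono replicate 1, which held the most Gsr of the mono libraries, it was 4.15-fold higher than in mono-PSCs (2.05, adjusted p = 4.74e-06). The enzymes that build glutathione in between were called in no comparison. Gclc, the catalytic subunit of the rate-limiting ligase, was at 37 ± 2.97, 38.6 ± 7.11 and 45.7 ± 7.05 CPM in mono-, 2W- and 3W-PSCs. Its modifier Gclm was at 65.5 ± 6.75, 61.0 ± 16.7 and 73.1 ± 9.98 CPM, and glutathione synthetase, Gss, at 17.4 ± 4.37, 26.3 ± 3.92 and 18.8 ± 2.59 CPM. The Slc7a11 call was lost against mono without mono replicate 2 or 3W replicate 1 or 2 (adjusted p from 0.0681 to 0.126), and against 2W without 2W replicate 4 or 3W replicate 1 or 2 (0.0589 to 0.0725). It was also lost against mono with all 12 libraries in one fit (0.0721) and against 2W with the replicate block (0.0613). The Gsr call against 2W was lost without 2W replicate 1 or 3W replicate 1, 2 or 3 (adjusted p from 0.0522 to 0.0649). Slc7a11 lies at chr3:49892526-50443614 on the minus strand and Gsr at chr8:33652523-33698163 on the plus strand.

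Of the genes of the glutathione peroxidase family, Gpx1 and Gpx7 were lower in 3W-PSCs than in either other culture. Gpx1, the cytosolic and mitochondrial enzyme, was at 108, 158, 145 and 126 CPM in the mono libraries, 123, 135, 160 and 144 CPM in the 2W libraries and 71.2, 63.7, 85.9 and 82.5 CPM in the 3W libraries. The 3W libraries lay under all others. Its log2 fold change was −0.83 ± 0.16 against mono (adjusted p = 0.00105) and −0.89 ± 0.16 against 2W (adjusted p = 0.00618). Gpx7, which resides in the endoplasmic reticulum, was at 16.0, 30.7, 19.7 and 27.1 CPM in the mono libraries, 16.9, 33.4, 31.7 and 31.8 CPM in the 2W libraries and 13.8, 12.5, 16.5 and 14.4 CPM in the 3W libraries. Its 3W libraries lay under all 2W libraries and overlapped only with mono replicate 1. The log2 fold change was −0.71 ± 0.23 against mono (adjusted p = 0.0293) and −0.98 ± 0.25 against 2W (adjusted p = 0.0278). Gpx8, the other peroxidase of the endoplasmic reticulum, was at 49.1 ± 12.2, 71.6 ± 6.58 and 55.5 ± 4.28 CPM in mono-, 2W- and 3W-PSCs and was not called, although its 2W libraries lay above all others. Gpx4, which reduces lipid peroxides, lay between 10.8 and 46.7 CPM and was not called. Of the 75-base windows in the last 500 bases of its coding transcripts, 84.1% occur in transcripts of other genes too, mostly the pseudogene Gpx4-ps2, so its level is uncertain. The Gpx7 calls were lost without mono replicate 2 or 4 or 3W replicate 1, 2 or 4 against mono (adjusted p from 0.0642 to 0.0989) and without 2W replicate 4 or any 1 3W library against 2W (0.0523 to 0.103). Gpx1 lies at chr9:108338903-108340343 on the plus strand and Gpx7 at chr4:108400390-108406961 on the minus strand.

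Peroxiredoxins remove peroxide with electrons from thioredoxin. In the main fits, 3 of the 6 were called lower in 3W-PSCs against mono, 2 against 2W, and none higher. Over all genes tested, 13.0% were lower against mono and 4.95% against 2W. Prdx1, the third most abundant of the genes by mean level, was at 945, 1619, 1655 and 1144 CPM in the mono libraries, 926, 290, 1345 and 1202 CPM in the 2W libraries and 727, 735, 809 and 745 CPM in the 3W libraries. All 3W libraries lay under all mono libraries, and 2W replicate 2 lay under both. Prdx2, also cytosolic, was at 223, 485, 377 and 303 CPM in the mono libraries, 265, 321, 398 and 381 CPM in the 2W libraries and 235, 229, 213 and 231 CPM in the 3W libraries. Prdx4, the peroxiredoxin of the secretory pathway, was at 135, 262, 229 and 193 CPM in the mono libraries, 160, 178, 253 and 222 CPM in the 2W libraries and 117, 121, 133 and 112 CPM in the 3W libraries. For Prdx2 and Prdx4 the 3W libraries lay under all 2W libraries, and for Prdx4 under all mono libraries too.
Against mono, the log2 fold change was −0.84 ± 0.18 for Prdx1 (adjusted p = 0.00254), −0.62 ± 0.19 for Prdx2 (adjusted p = 0.0245) and −0.77 ± 0.18 for Prdx4 (adjusted p = 0.0044). Against 2W it was −0.59 ± 0.17 for Prdx2 (adjusted p = 0.0466) and −0.75 ± 0.18 for Prdx4 (adjusted p = 0.0217). Prdx1 did not pass there (−0.31 ± 0.36, adjusted p = 0.621), but did without 2W replicate 2 (−0.62, adjusted p = 0.0101). Prdx5, found in mitochondria and peroxisomes, was at 237 ± 65.2, 288 ± 42.2 and 337 ± 26 CPM in mono-, 2W- and 3W-PSCs. Its log2 fold change of 0.50 ± 0.18 in 3W against mono had an adjusted p of 0.0532, on the other side of 0 from the 3 genes above, and passed without mono replicate 2 or 3 (adjusted p = 0.0242 and 0.0439) and with the replicate block (0.0407). Prdx3, the mitochondrial peroxiredoxin, was at 14.9 ± 4.37, 13.0 ± 8.01 and 16.7 ± 2.92 CPM. Prdx6, which works with glutathione, was at 115 ± 12.4, 122 ± 11 and 129 ± 5.91 CPM. Srxn1, the sulfiredoxin that restores overoxidised peroxiredoxins, was at 42.5 ± 7.39, 35.9 ± 4.40 and 48.0 ± 3.87 CPM. Prdx3, Prdx6 and Srxn1 were called in no comparison. The Prdx2 calls were lost in 6 of 8 fits that left out 1 library, against mono (without mono replicate 2 or 3 or any 1 3W library, adjusted p from 0.0533 to 0.104) and against 2W (without 2W replicate 3 or 4 or any 1 3W library, 0.0767 to 0.136), and Prdx4 against 2W without 2W replicate 4 or 3W replicate 1, 2 or 4 (0.0712 to 0.0795). Prdx2 shares 350 exonic bases with Junb and Rnaseh2a on the opposite strand, and no source states whether counting used strand. Prdx1 lies at chr4:116685544-116700822 and Prdx2 at chr8:84969587-84974834, both on the plus strand, and Prdx4 at chrX:155323918-155340754 on the minus strand.

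Among the thioredoxins, which hand electrons to the peroxiredoxins, Txn1 was higher in 3W- than in mono-PSCs. The cytosolic thioredoxin Txn1 was at 564, 219, 406 and 268 CPM in the mono libraries, 386, 88.1, 705 and 306 CPM in the 2W libraries and 663, 621, 755 and 537 CPM in the 3W libraries. The mono and 2W libraries were spread widely, and mono replicate 1 and 2W replicate 3 reached into the 3W range. The log2 fold change was 0.81 ± 0.23 against mono (adjusted p = 0.0159) and 0.80 ± 0.45 against 2W (adjusted p = 0.286). The first call was lost without mono replicate 4 (adjusted p = 0.0586). The mitochondrial thioredoxin Txn2 was at 105 ± 19.8, 109 ± 23.1 and 88.5 ± 6.80 CPM in mono-, 2W- and 3W-PSCs. The cytosolic reductase Txnrd1 was at 199 ± 14.6, 206 ± 46.0 and 216 ± 26 CPM, and the mitochondrial Txnrd2 at 7.93 ± 2.22, 6.62 ± 2.07 and 7.25 ± 1.96 CPM, and neither was called. Txn1 lies at chr4:57943373-57956411 on the minus strand.

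The 3 superoxide dismutases moved apart in 3W-PSCs. Sod2, the mitochondrial manganese enzyme, was at 74.1, 53.9, 73.5 and 65.8 CPM in the mono libraries, 47.4, 9.32, 70.1 and 46.9 CPM in the 2W libraries and 234, 253, 148 and 183 CPM in the 3W libraries. Sod3, the secreted enzyme that binds matrix, was at 12.3, 11.4, 16.0 and 13.8 CPM in the mono libraries, 7.18, 10.3, 11.8 and 12.4 CPM in the 2W libraries and 60.6, 64.5, 48.1 and 45.3 CPM in the 3W libraries. For both genes every 3W library lay above every other library. Sod1, the abundant copper-zinc enzyme of the cytosol, went the other way, at 1028, 1656, 1502 and 1337 CPM in the mono libraries, 988, 1818, 1060 and 1251 CPM in the 2W libraries and 741, 730, 683 and 867 CPM in the 3W libraries. All its 3W libraries lay under all others.
Against mono-PSCs, Sod2 was 3.05-fold higher (log2 fold change 1.61 ± 0.18, adjusted p = 4.76e-06) and Sod3 was 4.06-fold higher (2.02 ± 0.19, adjusted p = 6.39e-07), while Sod1 was 1.84-fold lower (−0.88 ± 0.17, adjusted p = 0.000991). Against 2W-PSCs, Sod2 was 4.70-fold higher (2.23 ± 0.44, adjusted p = 0.00937) and Sod3 5.26-fold higher (2.40 ± 0.23, adjusted p = 0.000144), while Sod1 was 1.69-fold lower (−0.76 ± 0.21, adjusted p = 0.0434). Without 2W replicate 2, where Sod2 was lowest, its log2 fold change against 2W was 1.90 (adjusted p = 2.00e-05). In the summed level of the 3 genes, Sod1 made up 92.2% to 96.2% in the mono libraries, 92.8% to 98.9% in the 2W libraries and 69.7% to 79.2% in the 3W libraries. The share of Sod2 was 16.7% to 24.2% in 3W-PSCs and at most 6.65% elsewhere. Catalase, Cat, which destroys peroxide in peroxisomes, was at 49.4 ± 10.6, 34.5 ± 10.6 and 34.8 ± 6.52 CPM in mono-, 2W- and 3W-PSCs and was not called (−0.51 ± 0.19 in 3W against mono, adjusted p = 0.0581), but passed there without mono replicate 1 (−0.63, adjusted p = 0.0120) or 3W replicate 3 (−0.64, adjusted p = 0.0329). The Sod1 call against 2W was lost without 2W replicate 4 or any 1 3W library (adjusted p from 0.0827 to 0.137). Sod1 lies at chr16:90220754-90226329, Sod2 at chr17:13006846-13040063 and Sod3 at chr5:52363791-52371418, all on the plus strand.

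**Figure D3:**
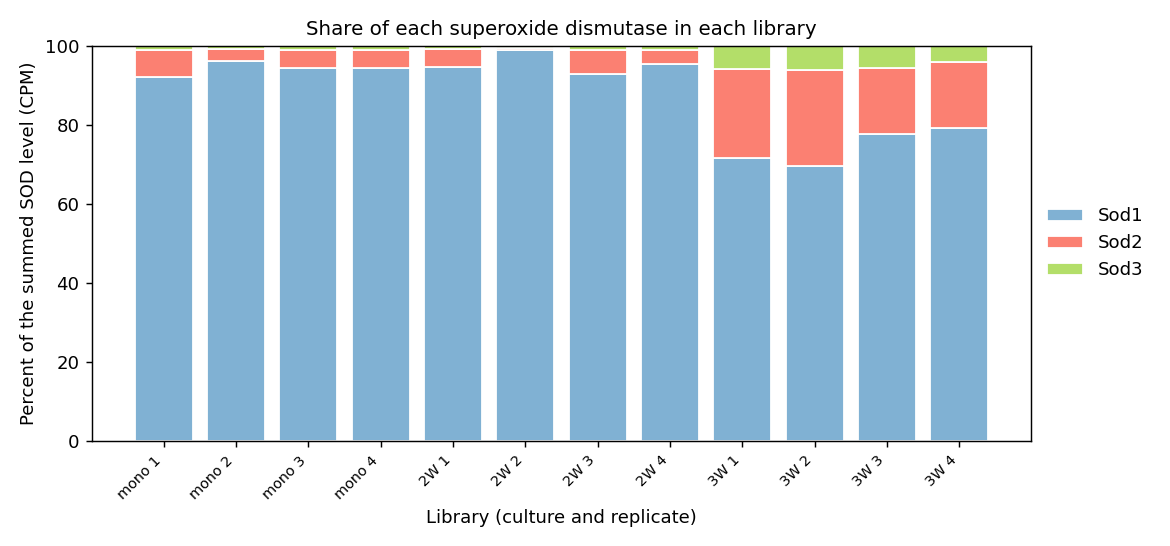
Percent of the summed level (CPM) of Sod1, Sod2 and Sod3 that each gene held in each library (bars, 4 per culture). Sod1 held 92.2% or more in the mono and 2W libraries and 69.7% to 79.2% in the 3W libraries.

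The glutathione transferases held the 1 gene called in 2W-PSCs. Gstm1, a cytosolic mu-class enzyme, was at 171, 224, 178 and 217 CPM in the mono libraries, 92.1, 120, 95.1 and 114 CPM in the 2W libraries and 47.5, 51.4, 79.3 and 65.5 CPM in the 3W libraries. The 3 cultures did not overlap, with mono highest and 3W lowest. Gstm2, of the same gene cluster, was at 151, 219, 189 and 190 CPM in the mono libraries, 118, 203, 119 and 153 CPM in the 2W libraries and 55.3, 56.3, 73.2 and 94.1 CPM in the 3W libraries. Its 3W libraries lay under all others, and the mono and 2W libraries overlapped.
Gstm1 was 1.86-fold lower in 2W- than in mono-PSCs (log2 fold change −0.89 ± 0.19, adjusted p = 0.0462), 3.26-fold lower in 3W- than in mono-PSCs (−1.71 ± 0.18, adjusted p = 1.98e-06) and 1.73-fold lower in 3W- than in 2W-PSCs (−0.79 ± 0.20, adjusted p = 0.0271). Gstm2 was 2.7-fold lower in 3W- than in mono-PSCs (−1.43 ± 0.19, adjusted p = 2.00e-05) and 2.12-fold lower than in 2W-PSCs (−1.08 ± 0.23, adjusted p = 0.0147). In 2W against mono, Gstm2 had a log2 fold change of −0.32 ± 0.22 (adjusted p = 0.934).
Gsta4, which detoxifies lipid aldehydes, was at 4.92, 6.27, 2.84 and 5.08 CPM in the mono libraries, 6.19, 7.11, 8.44 and 7.39 CPM in the 2W libraries and 1.73, 3.01, 1.40 and 2.99 CPM in the 3W libraries. The 3W libraries lay under all 2W libraries, at −1.66 ± 0.37 on the log2 scale (adjusted p = 0.0157), from 11 to 53 counts per library. Against mono its log2 fold change was −1.06 ± 0.43 (adjusted p = 0.0722). Mgst1, a membrane-bound transferase, was at 27.9, 17.4, 22.2 and 13.8 CPM in the mono libraries, 25.9, 2.21, 61.8 and 22.8 CPM in the 2W libraries and 55.4, 50.9, 66.8 and 44.6 CPM in the 3W libraries. It was higher in 3W- than in mono-PSCs (1.42 ± 0.22, adjusted p = 0.000117), with the 2W libraries spread over both ranges. Gsto1 was at 176 ± 27.5, 232 ± 60.7 and 166 ± 26.2 CPM in mono-, 2W- and 3W-PSCs and Mgst3 at 3.13 ± 2.76, 3.16 ± 2.84 and 2.85 ± 1.99 CPM, and neither was called. Gstp1 was at 3.36 ± 3.89, 5.06 ± 6.70 and 8.67 ± 0.953 CPM, and 72.8% of its 3′ windows also occur in other genes, mostly Gstp2, so its level is uncertain. In 3W against mono its log2 fold change was 1.38 ± 0.54 (adjusted p = 0.0663), 2.62 without mono replicate 1 (adjusted p = 0.000154) and 1.84 with the replicate block (adjusted p = 0.0113). In 3W against 2W it was 0.75 ± 0.73 (adjusted p = 0.561), and 2.14 without 2W replicate 3 (adjusted p = 0.0424).
The Gstm1 call in 2W-PSCs was lost in 6 of 8 fits that left out 1 library (all but mono replicate 1 and 2W replicate 2, adjusted p from 0.0990 to 0.172), and Gsta4 was lost without 3W replicate 1 (0.0596). These fits did not pair replicate numbers. With the replicate block and all libraries, the log2 fold change of Gstm1 in 2W against mono was −0.89 (adjusted p = 0.0229). Against 2W, Gstm1 was lost without 2W replicate 4 or 3W replicate 1, 2 or 4 (adjusted p from 0.0676 to 0.107) and Gstm2 without 3W replicate 1 or 2 (0.0601 and 0.0662). Gstm1 lies at chr3:108012255-108017973 and Gstm2 at chr3:107981702-107986453, both on the minus strand, with Gsta4 at chr9:78182774-78209349 and Mgst1 at chr6:138140316-138156755, both on the plus strand.

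**Figure D4:**
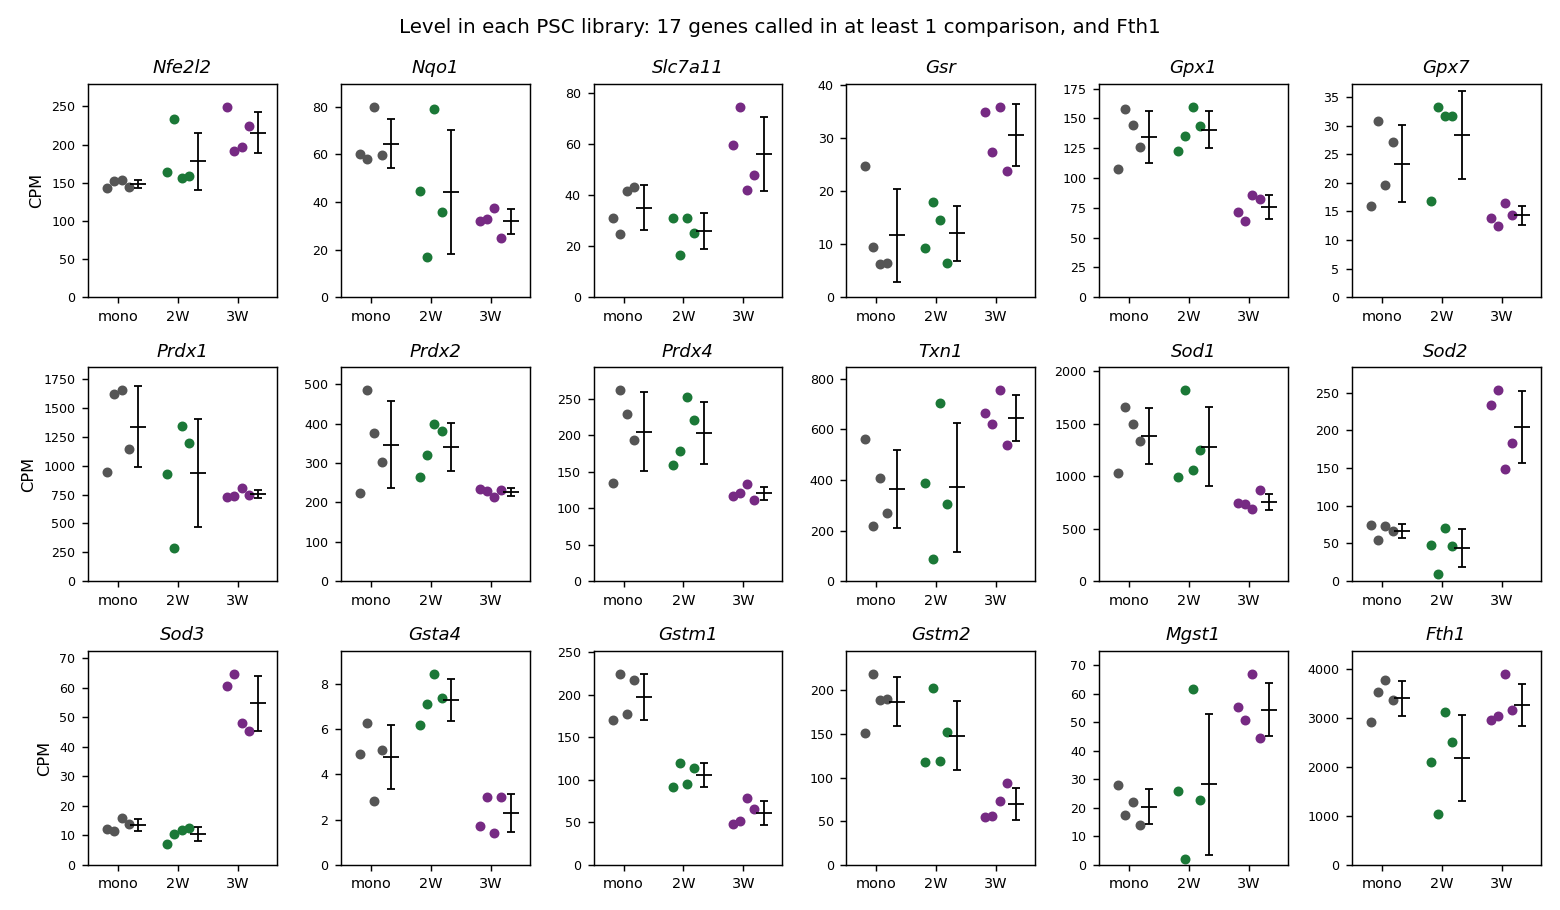
Level in CPM (y axis from 0) of the 17 called genes and Fth1 in each library of mono-, 2W- and 3W-PSCs, with the mean ± SD of 4 libraries in black beside the points. Sod2 and Sod3 stand above all other libraries in 3W-PSCs, Gpx1, Sod1, Gstm1 and Gstm2 stand under them, and Fth1 overlaps between all cultures.

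Neither chain of ferritin, the iron store, was called in the main fit of any comparison. The light chain was called under some alternatives, both with all libraries and with 1 library left out. Fth1, the ferritin heavy chain, which oxidises iron as it is stored, was the most abundant of the 38 genes. It was at 2924, 3530, 3781 and 3381 CPM in the mono libraries, 2097, 1034, 3119 and 2503 CPM in the 2W libraries and 2959, 3045, 3900 and 3169 CPM in the 3W libraries. Its log2 fold change was −0.62 ± 0.30 in 2W against mono (adjusted p = 0.702), −0.07 ± 0.17 in 3W against mono (adjusted p = 0.803) and 0.58 ± 0.29 in 3W against 2W (adjusted p = 0.223). Of its 3′ windows, 3.40% occur in another gene. The light chain Ftl1 was at 38.6, 7.05, 7.63 and 6.78 CPM in the mono libraries, 9.996, 2.45, 37.1 and 3.53 CPM in the 2W libraries and 36, 31, 30.2 and 23.8 CPM in the 3W libraries. The 3W libraries lay between mono replicate 1 and the rest of the mono libraries. The log2 fold change of Ftl1 in 3W against mono was 1.01 ± 0.43 (adjusted p = 0.0929), 2.06 without mono replicate 1 (adjusted p = 2.03e-06) and 1.41 with the replicate block (adjusted p = 0.0044). Without a filter it was 1.03 (adjusted p = 0.000126). In 3W against 2W it was 1.17 ± 0.64 (adjusted p = 0.272), and 2.45 without 2W replicate 3 (adjusted p = 0.00645). As 64.3% of its 3′ windows occur in 8 other genes, mostly the pseudogene Ftl1-ps1, its level is uncertain. Fth1 lies at chr19:9980598-9985098 on the plus strand and Ftl1 at chr7:45457944-45459884 on the minus strand.

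Some libraries held several of the genes at a high level, and the genes named next were chosen after their values were seen. In mono replicate 1, Gsr, Gpx4, Txn1, Gstp1, Mgst1, Mgst3 and Ftl1 were each at their highest of the 4 mono libraries. In 2W replicate 3, Gpx4, Txn1, Gstp1, Mgst1, Mgst3 and Ftl1 were again at their highest of the 4 2W libraries.

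Of 101 other genes of the same pathways, 73 were tested in the 2 comparisons with 3W-PSCs and 69 in 2W against mono. Genes not tested in 2W against mono had enough counts only through the 3W libraries. Akr1b3, Cybb and Lcn2 are such genes and are among those called higher against mono. In 3W against mono, 14 were higher and 16 lower, and in 3W against 2W, 9 were higher and 7 lower, where the percentages over all genes are those given above. Without 2W replicate 2 the second count was 26 genes in all, and without 3W replicate 1, 2 or 4 it was 9, 9 and 10. Over all genes tested, 2107 of 11736 were called without 2W replicate 2. Without 3W replicate 1, 2 or 4, 550, 497 and 667 of all genes were called, against 1230 with all libraries. In 2W against mono, 1 gene was called, Cygb, a globin of stellate cells, at a log2 fold change of 2.42 ± 0.39 (adjusted p = 0.00834), and at an adjusted p of 0.0522 without mono replicate 3. It was at 40.3 to 81.1 CPM in the mono libraries, 169 to 521 CPM in the 2W libraries and 31.6 to 49.4 CPM in the 3W libraries, and its log2 fold change in 3W against 2W was −2.87 ± 0.36 (adjusted p = 0.000803).

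Of the 18 tested genes of iron handling, 5 were higher, 1 was lower and 12 were not called in 3W-PSCs, against mono and against 2W alike, where 26.4% and 10.7% of all genes were called. Without mono replicate 1, 11 were called against mono, where 4266 of all 11747 genes tested were called. Cp, the ferroxidase ceruloplasmin, was at 14.3 to 23.8 CPM in the mono libraries, 18.4 to 36 CPM in the 2W libraries and 89.8 to 129 CPM in the 3W libraries. Its log2 fold change was 2.51 ± 0.20 against mono (adjusted p = 5.52e-08) and 2.08 ± 0.24 against 2W (adjusted p = 0.000413). Slc39a14, an iron and zinc importer, was higher by 1.46 ± 0.24 against mono (adjusted p = 0.000208) and 1.48 ± 0.24 against 2W (adjusted p = 0.00329), and the metalloreductase Steap2 by 1.07 ± 0.15 (adjusted p = 4.52e-05) and 1.33 ± 0.15 (adjusted p = 0.000413), all on the log2 scale. The mitochondrial iron importer Slc25a37 and Lcn2, which binds iron-laden siderophores, were also higher in both, with Lcn2 at 3.56 to 5.31 CPM in the 3W libraries and at most 1.23 CPM elsewhere. Lcn2 was not tested in 2W against mono. It had enough counts for a test only through the 3W libraries, so its place among the 5 higher genes gives no separate support. Macrophage markers summed to 13.0 to 54.2 CPM in the 3W libraries and at most 11.8 CPM elsewhere. The part of macrophages in the Lcn2 level was not tested. Slc40a1, the iron exporter ferroportin, was lower, at 4.23 to 9.20 CPM in the mono libraries, 10.8 to 16.4 CPM in the 2W libraries and 1.99 to 3.35 CPM in the 3W libraries. Its log2 fold change was −1.19 ± 0.37 against mono (adjusted p = 0.0250) and −2.17 ± 0.29 against 2W (adjusted p = 0.00113). The call of Slc40a1 against mono was lost without mono replicate 2 or 3 or 3W replicate 1 (adjusted p up to 0.0847), that of Slc25a37 against 2W without 2W replicate 1, 3 or 4 or 3W replicate 1 or 2 (up to 0.102), and that of Lcn2 against 2W without 3W replicate 1, 2 or 4 (up to 0.0658).

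Of the 8 tested genes that produce oxidants, 2 were higher and 2 lower in 3W-PSCs against mono, and 2 were higher and 1 lower against 2W. Over all genes tested, 26.4% and 10.7% were called. Both counts of higher genes include Cybb, which was not tested in 2W against mono. It had enough counts for a test only through the 3W libraries, so its call as higher gives no separate support. Cybb, the catalytic subunit of the phagocyte NADPH oxidase, held 201 counts over the 4 3W libraries and none in 2W-PSCs. Set against a floor of 3 counts over the culture, that is at least 50.0-fold higher than in 2W-PSCs. It was at 8.37, 8.44, 4.07 and 4.29 CPM in the 3W libraries, where macrophage markers summed to 18.9, 13.0, 15.5 and 54.2 CPM, all above the other cultures. The part of macrophages in this level was not tested. Its partner Cyba was lower in 3W-PSCs, at a log2 fold change of −0.74 ± 0.20 against mono (adjusted p = 0.0113) and −0.66 ± 0.15 against 2W (adjusted p = 0.0156). The Cyba call was lost without mono replicate 2 (0.0511) against mono, and without 2W replicate 4 or 3W replicate 1, 2 or 4 (up to 0.0609) against 2W. Xdh was higher by 0.95 ± 0.17 against mono (adjusted p = 0.000553) and 1.44 ± 0.21 against 2W (adjusted p = 0.00185), on the log2 scale. Maoa was lower against mono (−1.15 ± 0.17, adjusted p = 7.19e-05) and was not called against 2W (−0.60 ± 0.22, adjusted p = 0.105). The Xdh and Maoa calls were lost in no alternative.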

How the data were processed

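The authors sequenced 3′ tag libraries (QuantSeq) of sorted PSCs as single reads of 75 bases, aligned them with STAR to GRCm38 and counted reads per Ensembl gene with featureCounts. The deposited values are whole-number counts per gene, not normalised, for 12 libraries of 4561817 to 8093368 counts. No molecular identifiers or strand setting are given in the sources used here, so the counts cover reads and not independent molecules. All 12 columns were matched to a labelled sample by the sample number in its title.

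Each pair of cultures (4 libraries each) was fitted on its own in edgeR 4.0.16 (R 4.3.3) with TMM scaling, filterByExpr, a prior count of 0.125 and the quasi-likelihood test, with p-values adjusted by Benjamini-Hochberg over all genes tested. SEs are the unshrunken coefficient divided by the root of the test statistic. Levels (CPM) are counts scaled to library size with TMM factors over the 12 libraries. The fits were tested on simulated data. The 38 genes, the 101 pathway genes and the markers were chosen with earlier results of these data known, so they give no independent support. Values in every library are given for genes called in at least 1 comparison and the 5 with the highest mean level, and other members by their range or mean.

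Libraries of 1 culture differed by more than sampling noise. The deviations of same-numbered libraries from their culture means correlated at 0.499, 0.396, 0.329 and 0.154 over 8700 genes in 2W and mono. In these 2 cultures each library correlated best with its own number, and with 3W not every library did. The main fits used no pairing, so their p-values in 2W against mono leave it out. The replicate block, which uses it, is an alternative. Gene positions, overlaps and shared 75-base windows come from GENCODE M21 (GRCm38), and promoters from RefSeq (GRCm38.p6). Alternatives were DESeq2 1.42.0 with its size factors or its Wald test, other filters, all 12 libraries in one fit, a replicate block, a prior count of 2, a log2 fold change above 1, and each library left out. A further 2, added after seeing the data, were removing the most abundant gene with mitochondrial rRNA, and removing 2W replicate 2 and 3W replicate 4 from 3W against 2W.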

Additional observations from a re-analysis of the deposited data

Results flagged for a closer look

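Of 111 sets of 4 libraries (37 genes in 3 cultures), 6 held a library far from the other 3 by Dixon's ratio (critical value 0.829), which is 5.41%, and chance alone gives about 1 in 20. Nfe2l2 was at 233 CPM in 2W replicate 2 where the other 2W libraries lay at 156 to 164 CPM. Nqo1 was at 80.1 CPM in mono replicate 3 against 58.0 to 60.2 CPM. Gpx4 was at 30.5 CPM in 3W replicate 1 against 17.6 to 18.7 CPM. Gpx7 was at 16.9 CPM in 2W replicate 1 against 31.7 to 33.4 CPM. In mono replicate 1, Gstp1 was at 9.13 CPM against 0.605 to 1.95 CPM and Ftl1 at 38.6 CPM against 6.78 to 7.63 CPM.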

How the results depend on the processing

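None of the 29 calls of single genes above changed direction under its 16 or 17 alternatives. The log2 fold change above 1 is not among these and is counted below. The prior count of 2 is among them, but it alters the fold change and not the test, so it could lose no call. Of the 29, 12 kept the call in all of these alternatives and 17 lost it in at least 1. Of the 82 results not called, 12 were called and 28 changed sign in at least 1 alternative. The cause of these changes was not tested. In 2W against mono, 111 genes were called, and 177 without a filter, 57 with at least 10 counts in every library, 262 with all 12 libraries in one fit, 275 by DESeq2, and 61 to 233 with 1 library left out. The 1 member called there was 0 to 1 with 1 library left out and 0 at a log2 fold change above 1. In 3W against mono, 16 members became 10 with all 12 libraries in one fit and 7 (of 1380 genes in place of 3054) at a log2 fold change above 1. Txn1, Prdx1 and Mgst1 were among those lost in one fit (adjusted p = 0.202, 0.0985 and 0.0702). In 3W against 2W, 12 members and 1230 genes became 6 and 672 at a log2 fold change above 1, and 3 to 17 and 497 to 2107 with 1 library left out. With 2W replicate 2 and 3W replicate 4 removed, 14 members and 1591 genes were called, 12 of the members shared with the full set. With the replicate block, 7 members and 752 genes were called in 3W against 2W, 19 members and 3092 genes in 3W against mono, and 135 genes and the same single member in 2W against mono. With 3W, same-numbered libraries correlated at −0.062 to 0.227 and not every library correlated best with its own number. Low counts limit Gsta4 (11 to 53 per library) and Gpx3.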
